A study of Mus musculus with 435 samples.

Results

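Gata4, Wt1, Lhx9, Emx2, Six4 and Cbx2 are regulatory genes of the genital ridge, the paired thickening of the coelomic epithelium from which testis and ovary form. They were chosen by name, with earlier results of these data known, and all 6 were found among the 16459 genes of the table. Each is described in single cells of the fetal mouse XY gonad across 9 captures and 5 stages, by the share of cells in which it was detected, by its level and by the other genes found in the same cells. A gene was counted as detected in a cell at 1 RPKM or more, that is, reads per kilobase of gene and per 1 M reads.

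The cells came from XY gonads of 5 embryonic days, E10.5 to E16.5, which are the groups. All had the genotype NR5A1-eGFP, a green reporter of the steroidogenic factor Nr5a1, and all were on a mixed background. No group lacked the reporter or was treated. Green cells were sorted alive, captured in the chambers of Fluidigm C1 chips and sequenced from poly-A RNA. The number of embryos pooled for a capture is not stated in the labels, and the sort left out cells in which the reporter was off. The captures, 1 at E10.5 and 2 at each later stage, were the replicates, so p-values measure the spread between captures.

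In the mouse, the genital ridge forms when cells of the coelomic epithelium multiply and enter the tissue below, and these factors act before and around the choice between testis and ovary. Gata4, a zinc finger protein, is needed for the ridge to thicken. Wt1, another zinc finger protein, and the LIM homeodomain protein Lhx9 act on Nr5a1, and gonads are lost without either. Emx2, a homeodomain protein, is needed for the epithelium to grow and divide. Six4, also a homeodomain protein, acts upstream of Nr5a1 and of the Gata4 cofactor Zfpm2. Cbx2, a chromobox subunit of the Polycomb repressive complex, is needed for normal Sry expression.

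The 6 genes lie on 6 chromosomes, given here on GRCm38 with GENCODE M21. Gata4 (ENSMUSG00000021944.15) is at chr14:63198922-63271692 on the minus strand. Wt1 (ENSMUSG00000016458.14) is at chr2:105126529-105173616 on the plus strand. Lhx9 (ENSMUSG00000019230.14) is at chr1:138825186-138848577 on the minus strand. Emx2 (ENSMUSG00000043969.4) is at chr19:59458372-59465357 on the plus strand. Six4 (ENSMUSG00000034460.9) is at chr12:73099609-73113456 on the minus strand. Cbx2 (ENSMUSG00000025577.7) is at chr11:119022962-119031270 on the plus strand. Their exons together span between 3002 bases in Emx2 and 10855 bases in Six4.

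Start-site windows of Lhx9 and Six4 are shown because these genes differ in how widely they were detected, Lhx9 in 54.1% and Six4 in 9.18% of cells on average over captures. RefSeq (GRCm38.p6) gave windows for 3 of the 6 genes, Lhx9, Six4 and Emx2, and the Emx2 window lies inside an annotated exon and is not printed. The windows were searched on both strands for the letters GATAA (bound by GATA factors), TAATTA (homeodomain), GCGTGGG (Egr and Wt1 zinc finger) and GGGCGG (GC box). The Lhx9 stretch, chr1:138842458-138842694 on the minus strand, is 237 bases upstream of the RefSeq start and lies within the gene outside GENCODE exons. Its capitals mark TTATC, which is GATAA on the other strand. The Six4 stretch, chr12:73113457-73113675 on the minus strand, is 219 bases, and its capitals mark a GC box.
Lhx9: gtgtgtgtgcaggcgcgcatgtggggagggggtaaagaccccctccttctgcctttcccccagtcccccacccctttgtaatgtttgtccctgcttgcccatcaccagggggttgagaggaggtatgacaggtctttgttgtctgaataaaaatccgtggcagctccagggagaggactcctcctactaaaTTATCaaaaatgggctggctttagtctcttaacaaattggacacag
Six4: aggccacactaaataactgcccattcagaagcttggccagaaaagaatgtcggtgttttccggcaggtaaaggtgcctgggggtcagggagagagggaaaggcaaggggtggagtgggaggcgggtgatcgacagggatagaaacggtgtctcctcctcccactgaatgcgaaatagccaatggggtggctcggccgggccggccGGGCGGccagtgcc
Of 32851 mouse windows of 250 bases, 22.6% held GATAA and 32.7% held GGGCGG, so both matches are common. TAATTA was in 4.84% and GCGTGGG in 4.30% of those windows, and in none of the windows of Lhx9, Six4 and Emx2. These matches are letters in a window and say nothing of binding.

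Of 435 labelled cells, 400 were in the table and 396 were kept as separate cells. The E10.5 capture held 59, the E11.5 captures 52 and 41, those of E12.5 30 and 37, those of E13.5 56 each, and those of E16.5 31 and 34. Median depth, as the values imply it, was 7.83 to 8.10 M reads per cell in the run that held E10.5 and E13.5, and 2.20 to 3.24 M reads in the run that held E11.5, E12.5 and E16.5. Run and stage therefore cannot be told apart except within a run. The sort marker eGFP was detected in 85.7% to 100% and Nr5a1 in 55.9% to 94.1% of the cells of a capture. Germ cell markers (at least 3 of 5) were found in 8 cells, all in the second E12.5 capture, where their summed level was 96.2 RPKM against at most 7.76 RPKM in any other capture. Cells of wells 49 and 56 of that capture correlated at 0.998, against at most 0.701 for any other pair, and were counted as 1 cell.

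Wt1 was the most widely detected of the 6. It was found in 88.1% of E10.5 cells, 86.5% and 95.1% of E11.5 cells, 93.3% and 94.6% of E12.5 cells, 73.2% and 71.4% of E13.5 cells, and 77.4% and 73.5% of E16.5 cells. The 4 captures of E13.5 and E16.5 were the lowest, and all 5 earlier captures were above them. At least 1 Wt1 read was found in 85.3% to 100% of the cells of a capture. The mean level was 58.5 RPKM at E10.5, 163 and 170 RPKM at E11.5, 105.1 and 68.6 RPKM at E12.5, 55.5 and 79 RPKM at E13.5, and 49.6 and 51.1 RPKM at E16.5. Both E11.5 captures thus stood above all others, and both E16.5 captures below all others.

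Gata4 was found in 49.2% of E10.5 cells, 48.1% and 65.9% of E11.5 cells, 56.7% and 86.5% of E12.5 cells, 89.3% and 69.6% of E13.5 cells, and 83.9% and 67.6% of E16.5 cells. The 2 captures of a stage differed by up to 29.8 percentage points, which was the gap at E12.5. The mean level was 17.9 RPKM at E10.5, 41.9 and 82.1 RPKM at E11.5, 34.99 and 94.6 RPKM at E12.5, 56.8 and 66.03 RPKM at E13.5, and 89.2 and 58.5 RPKM at E16.5. E10.5 was the lowest of the 9 captures in level. In cells that had it, the median level was 18.9 RPKM at E10.5 and 77.9 RPKM at E16.5, so cells with Gata4 also held less of it at the first stage.

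Lhx9 was found in 40.7% of E10.5 cells, 59.6% and 60.98% of E11.5 cells, 43.3% and 86.5% of E12.5 cells, 67.9% and 51.8% of E13.5 cells, and 32.3% and 44.1% of E16.5 cells. The second E12.5 capture stood above all others, and its 95% Wilson interval of 72.02% to 94.1% did not reach the 27.4% to 60.8% of the first. The mean level of Lhx9 was 29.3 RPKM at E10.5, 27.5 and 48.3 RPKM at E11.5, 14.4 and 45.9 RPKM at E12.5, 24.9 and 31.9 RPKM at E13.5, and 8.99 and 18.97 RPKM at E16.5. The first captures of E12.5 and E16.5 were the lowest. Single cells weighed on those values, since 1 cell held 31.7% of all Lhx9 RPKM in the first E12.5 capture and 31.9% in the first E16.5 capture.

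Emx2 was found in 42.4% of E10.5 cells, 48.1% and 68.3% of E11.5 cells, 60% and 59.5% of E12.5 cells, 30.4% and 42.9% of E13.5 cells, and 0% and 2.94% of E16.5 cells. Both E16.5 captures were far below every earlier one, and their Wilson intervals, up to 11.03% and 14.9%, lay below those of the 7 others. The one-sided limit of 3 cells for a count of 0, lower than the two-sided Wilson bound, allows a share of up to 9.68% in the 31 cells of the first E16.5 capture. Not a single Emx2 read was found in those 31 cells. The second E16.5 capture had 639 reads, of which 638 came from 1 of its 34 cells. That cell, at 95.4 RPKM, also held Gata4, Wt1 and Lhx9, the interstitial markers Dcn, Pdgfra, Gli1 and Col3a1, and none of 10 Sertoli and 7 surface epithelium markers.

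The mean level of Emx2 was 9.47 RPKM at E10.5, 9.20 and 16.9 RPKM at E11.5, 5.63 and 11.4 RPKM at E12.5, 3.12 and 7.96 RPKM at E13.5, and 0 and 2.81 RPKM at E16.5. Without its 1 high cell the second E16.5 capture averaged 0.00423 RPKM. At E10.5, too, 1 cell held 56.4% of all Emx2 RPKM, and without it the capture averaged 4.20 RPKM. The E11.5, E12.5 and E16.5 captures shared a run and had like depths, at which 1 RPKM of Emx2 corresponds to 6.61 to 9.72 reads in the median cell. Markers of the surface epithelium were also lowest at E16.5: the 7 markers summed to 0 and 0.330 RPKM there, and to between 12.4 and 84.5 RPKM in the 7 earlier captures. Among the earlier captures the sum did not follow Emx2 throughout. It was 72.1 RPKM in the first E12.5 capture and 12.4 RPKM in the first E11.5 capture, where Emx2 averaged 5.63 and 9.20 RPKM. The part of the surface epithelium markers in the Emx2 values was not tested.

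Six4 was found in 20.3% of E10.5 cells, 3.85% and 9.76% of E11.5 cells, 3.33% and 21.6% of E12.5 cells, 16.1% and 1.79% of E13.5 cells, and 0% and 5.88% of E16.5 cells. The captures of a stage differed as much as the stages did. Its mean level was 2.67 RPKM at E10.5, 2.43 and 2.69 RPKM at E11.5, 0.919 and 2.21 RPKM at E12.5, 2.63 and 0.489 RPKM at E13.5, and 0 and 1.45 RPKM at E16.5. A single cell held 95.9% of the RPKM in the first E12.5 capture, 99.6% in the second E13.5 capture and 89.6% in the second E16.5 capture. Among cells at 1 RPKM or more, the median level of Six4 lay between 7.83 and 62.9 RPKM in the 8 captures with such cells. Other cells held Six4 reads below that limit: in the second E13.5 capture 5 cells had a read and 1 of them was at 1 RPKM or more.

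Cbx2 was found in 42.4% of E10.5 cells, 21.2% and 19.5% of E11.5 cells, 23.3% and 8.11% of E12.5 cells, 26.8% in the second E13.5 capture (7 of 56 cells in the first), and 12.9% and 8.82% of E16.5 cells. E10.5 was above all 8 later captures. Its mean level was 17.7 RPKM at E10.5, 8.59 and 2.13 RPKM at E11.5, 9.61 and 2.71 RPKM at E12.5, 1.57 and 6.12 RPKM at E13.5, and 5.33 and 2.47 RPKM at E16.5. E10.5 was again the highest, and it is a single capture from the deeper run. The E13.5 captures of the same run had Cbx2 in 7 of 56 and 15 of 56 cells, against 25 of 59 at E10.5.

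**Figure D1:**
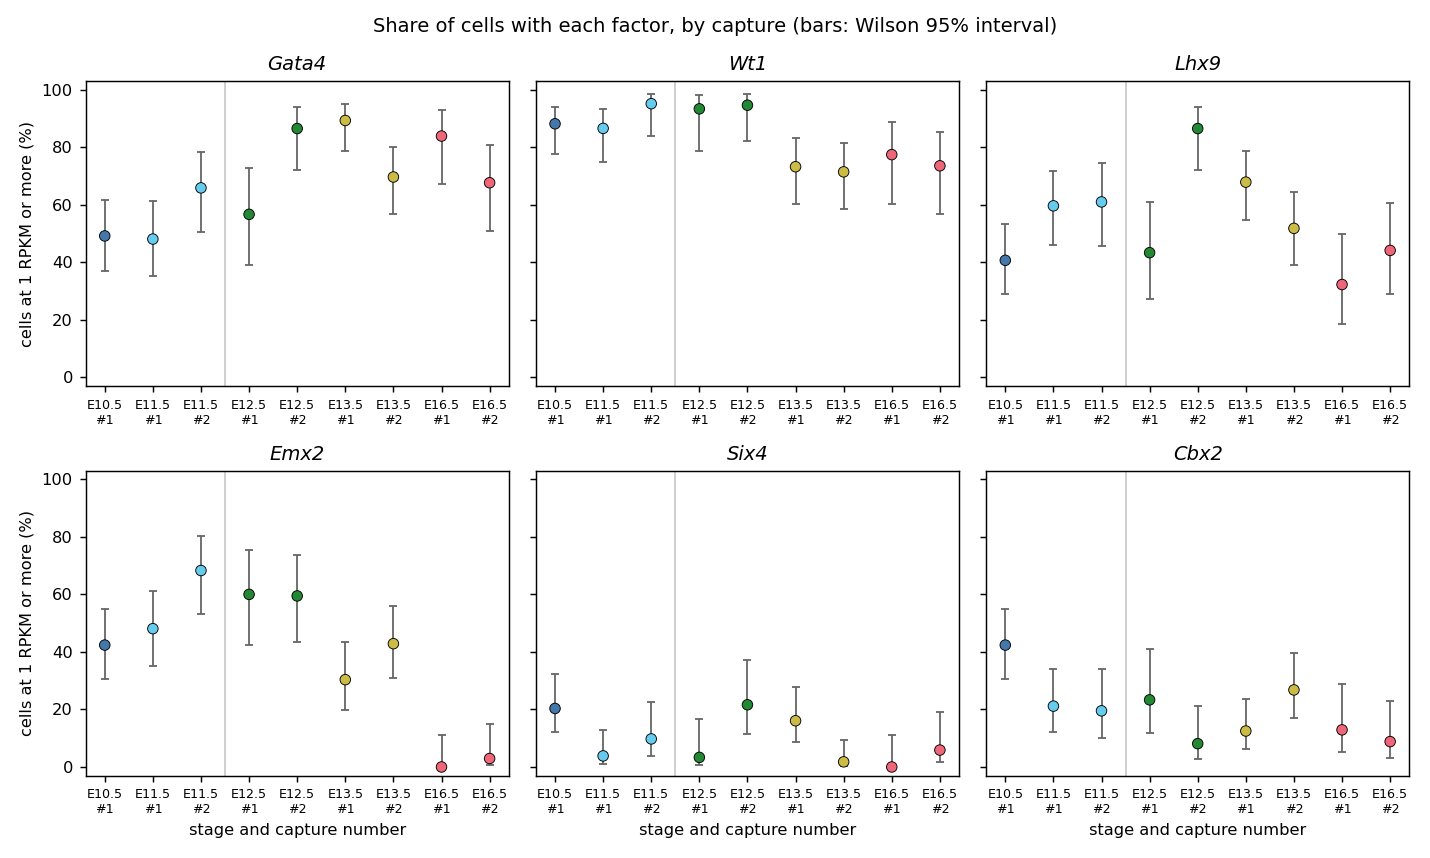
Share of cells (%) with each factor at 1 RPKM or more in the 9 captures, from E10.5 to E16.5; points are captures, bars their Wilson 95% intervals for counting error only, and the grey line parts E10.5 and E11.5 from the later stages. Wt1 lay between 71.4% and 95.1%, and Emx2 was at 0% and 2.94% in the E16.5 captures.

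**Figure D2:**
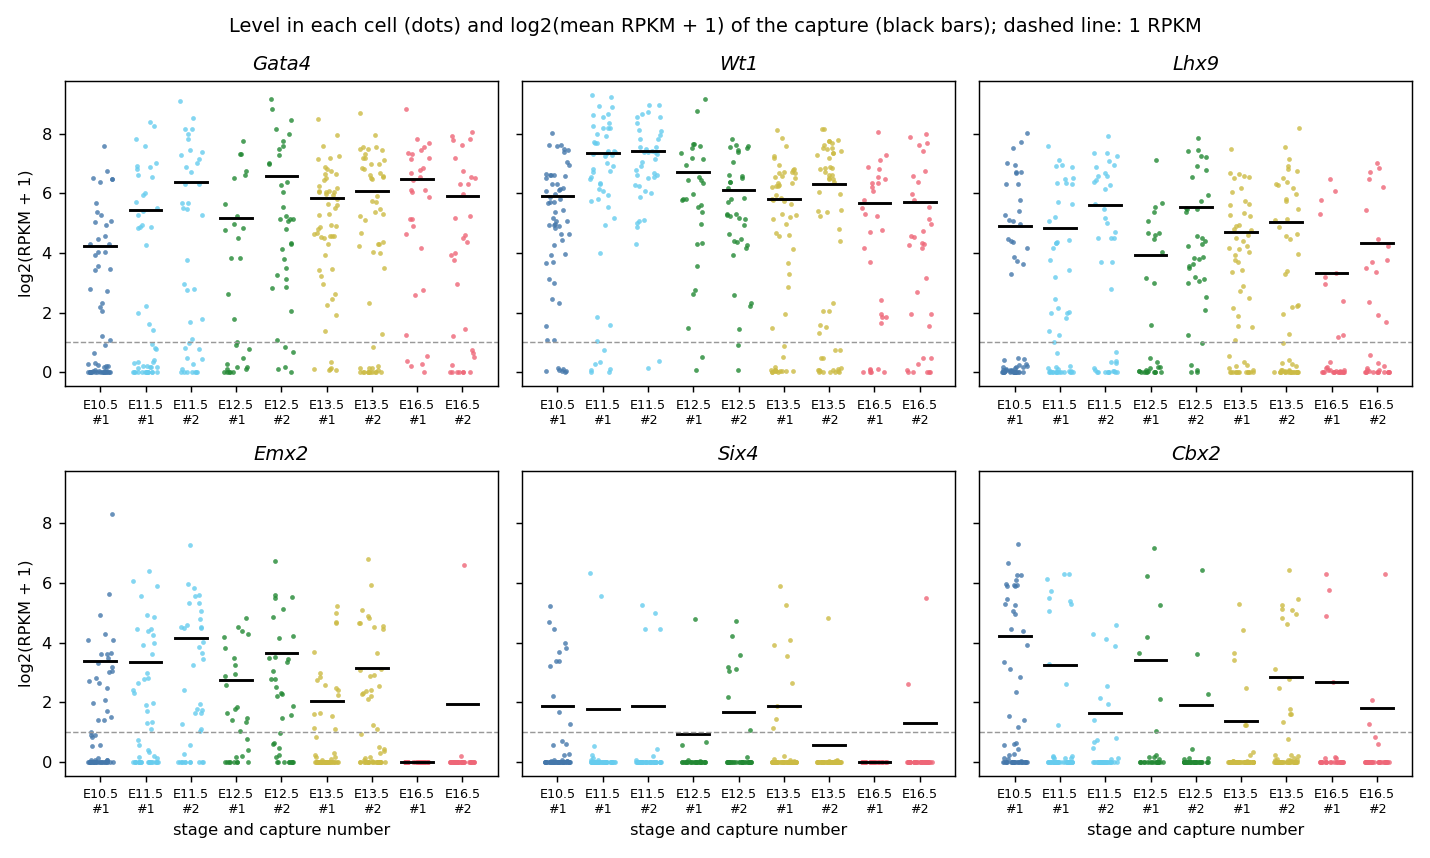
Level of each factor in single cells, as log2(RPKM + 1), in the 9 captures; dots are cells, black bars the log2 of the capture mean + 1, and the dashed line is 1 RPKM. Wt1 was highest in both E11.5 captures, and a single dot at 95.4 RPKM made nearly all the Emx2 signal of E16.5.

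Averaged over the 9 captures, the order of level was Wt1 at 89.01 ± 47.4 RPKM, Gata4 at 60.2 ± 25.8, Lhx9 at 27.8 ± 13.2, Emx2 at 7.39 ± 5.14, Cbx2 at 6.25 ± 5.19 and Six4 at 1.72 ± 1.04 RPKM (SD, n = 9 captures). RPKM is per kilobase, so these levels can be set side by side. Lhx9 was above Emx2 in 9 of 9 captures and Gata4 above Lhx9 in 8 of 9. Wt1 and Gata4, with Wt1 higher in 5 of 9 captures, and Emx2 and Cbx2, with Emx2 higher in 6 of 9, were neighbours whose levels did not differ beyond their spread. Cbx2 was above Six4 in 7 of 9 captures.

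The 6 late captures (E12.5, E13.5 and E16.5) were then set against the 3 early ones (E10.5 and E11.5), the stages after and before cord formation. Gata4 was detected in 75.6% ± 12.9 of late cells and 54.4% ± 9.97 of early cells (SD over captures, n = 6 and 3), a difference of 21.2 points. The exact two-sided permutation test over 84 splits of the captures gave p = 0.0357 for Gata4, and 0.214 after Benjamini-Hochberg adjustment over the 6 genes, so the difference did not pass. Cbx2 was detected in 15.4% ± 7.79 of late cells and 27.7% ± 12.8 of early cells, with an exact permutation p of 0.107 and an adjusted p of 0.321. Emx2 was detected in 32.6% ± 26.6 of late cells and 52.9% ± 13.6 of early cells, with an exact permutation p of 0.274 and an adjusted p of 0.411. The wide late spread of Emx2 came from the stages of that group, 60% and 59.5% at E12.5 against 0% and 2.94% at E16.5.

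Wt1 was detected in 80.6% ± 10.6 of late cells and 89.9% ± 4.57 of early cells, with an exact permutation p of 0.167 and an adjusted p of 0.333. Six4 was detected in 8.12% ± 8.71 of late cells and 11.3% ± 8.36 of early cells (adjusted exact permutation p = 0.671). Lhx9 was detected in 54.3% ± 19.7 of late cells and 53.8% ± 11.3 of early cells (adjusted exact permutation p = 0.964). None of the 6 shares passed. The smallest exact permutation p this design allows is 0.0119, which for a lone gene would not pass after adjustment over the 6 genes.

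Within the 10 M and the 25 M read run, the late minus early difference was 16.7 and 30.3 points for Gata4, -6.11 and -15.8 points for Wt1, -27.6 and -5.77 points for Emx2, and -7.04 and -22.7 points for Cbx2, each with the same sign in both runs. For Lhx9 it was -8.75 and 19.1 points and for Six4 0.908 and -11.4 points, with opposite signs. The runs do not repeat the same comparison. The 25 M read run sets 2 late captures, both E13.5, against 1 early capture, E10.5. The 10 M read run sets 4 late captures, of E12.5 and E16.5, against 2 early ones of E11.5. For Emx2, only the E16.5 captures of the 10 M read run were low, with 0% and 2.94%. Its E12.5 shares of 60% and 59.5% lay between the E11.5 shares of 48.1% and 68.3%. In the 25 M read run its E13.5 shares were 30.4% and 42.9%, against 42.4% for E10.5. With every cell thinned to 1 M reads, for which no cell was too shallow, the pooled differences were 19.6 points for Gata4, -7.99 for Wt1, 1.49 for Lhx9, -19.3 for Emx2, -2.63 for Six4 and -13.9 for Cbx2.

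Changes in mean level were fitted with limma, with the capture as the unit, on log2(mean RPKM + 1) over 12313 genes, and p-values were adjusted over all of them. All 6 factors passed the filter on low values. Of all genes, 0.577% were called in the late minus early comparison at an adjusted p of 0.05, and none of the 6 factors was among them. The 2 with the largest differences were Emx2 at -1.38 ± 0.65 (log2 ± SE, adjusted p = 0.458) and Wt1 at -0.83 ± 0.35 (adjusted p = 0.391). Gata4 was at 0.66 ± 0.41 (adjusted p = 0.630), the single positive value of the 6.

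Wt1 fell between E11.5 and E16.5, which lie in the same run. Its mean level was 49.6 and 51.1 RPKM in E16.5 captures, against 163 and 170 RPKM in E11.5 captures, without overlap. The log2 difference was -1.71 ± 0.34 with an adjusted p of 0.0309 in limma, in a comparison in which 1.52% of genes were called. Wt1 was the 1 factor of 6 that passed. Leaving out either capture of E11.5 or of E16.5 ended the call, with adjusted p between 0.124 and 0.223 at log2 differences of -1.68 to -1.74, as did dropping the filter on low values (adjusted p = 0.120).

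Emx2 had the largest difference between E16.5 and E11.5, -2.79 ± 0.76 on the log2(mean RPKM + 1) scale, with an adjusted p of 0.105 in limma. Between E16.5 and E12.5 it was -2.22 ± 0.76 (adjusted p = 0.245), in a comparison in which 0.357% of genes and none of the factors were called. The capture mean of the second E16.5 capture rests on 1 cell. With log2(RPKM + 1) averaged over cells, instead of taken from the capture mean, Emx2 passed limma in both comparisons, at -2.08 with an adjusted p of 0.00171 against E11.5 and at -1.88 with an adjusted p of 0.00798 against E12.5. Lhx9 was at -1.41 ± 0.57 between E16.5 and E11.5 (adjusted p = 0.311), and Gata4 was at 0.29 ± 0.49 (adjusted p = 0.872).

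From E10.5 to E11.5, across the runs, the level was 41.9 and 82.1 RPKM at E11.5 against 17.9 RPKM at E10.5 for Gata4, a log2 difference of 1.66 ± 0.60 (adjusted p = 0.593 in limma). For Wt1 the log2 difference was 1.495 ± 0.42 (adjusted p = 0.287), with 163 and 170 RPKM at E11.5 against 58.5 RPKM at E10.5. For Cbx2 it was -1.77 ± 0.98 (adjusted p = 0.897). No factor was called where 0.39% of genes were. Between E13.5 and E10.5, within the deeper run, 1.06% of genes and no factor were called, with Gata4 at 1.72 ± 0.60 (adjusted p = 0.316) and Cbx2 at -2.13 ± 0.98 (adjusted p = 0.553). E10.5 has 1 capture and took its spread from the other stages.

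Between E12.5 and E11.5, the step at which cords form, 0% of genes were called, and 961 of 12313 had an unadjusted p under 0.05 in limma. Among the factors, Wt1 was at -0.97 ± 0.34 (adjusted p = 0.539), Six4 at -0.52 ± 0.73, Emx2 at -0.57 ± 0.76, Lhx9 at -0.48 ± 0.57, Gata4 at -0.03 ± 0.49 and Cbx2 at 0.19 ± 0.80. The 95% interval of Gata4 ran from -1.10 to 1.05, so a change of about 1 log2 unit either way was not excluded. The interval does not give the size of change that would be called after adjustment over all genes.

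**Figure D3:**
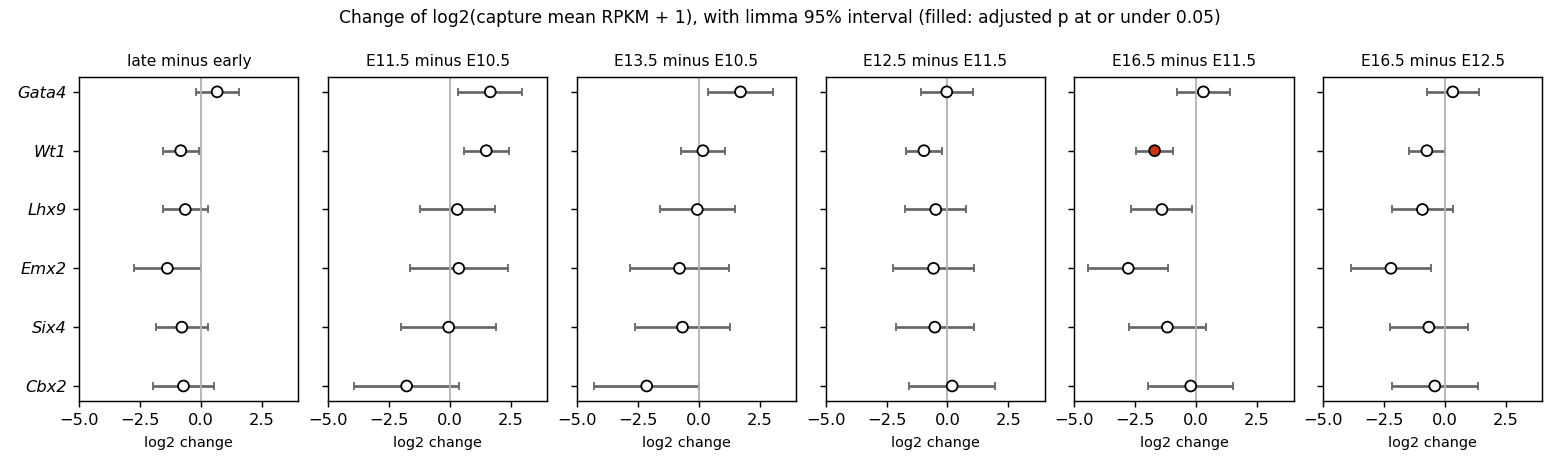
Change of log2(capture mean RPKM + 1) of each factor in 6 comparisons, with the limma estimate (circle) and its 95% interval (bar); a filled circle has an adjusted p at or under 0.05. Wt1 between E16.5 and E11.5, at -1.71, is the only filled circle.

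Listed genes that work with these factors gave a background for these changes. None of the 14 partner and upstream genes, of which 12 were tested, was called in any of the 6 comparisons. Nor was any of 11 tested genes of Polycomb repressive complex 1, which Cbx2 belongs to. Of 9 tested downstream genes, 3 rose and 3 fell between E11.5 and E16.5, where 1.52% of all genes were called, with a median log2 change of 0.53 against -0.08 over all genes. The largest were Amh, the hormone that removes the Müllerian ducts, at 5.18 ± 0.77 (adjusted p = 0.00653 in limma), and Podxl, a surface sialomucin and Wt1 target in kidney, at -4.53 ± 0.66 (adjusted p = 0.00618). Dhh, a hedgehog ligand of Sertoli cells, was at 4.06 ± 0.73 (adjusted p = 0.0197), and Nr0b1, a nuclear receptor, at -4.04 ± 0.78 (adjusted p = 0.0256). Amh and Dhh are also on the list of 10 Sertoli markers, whose summed level was 2997 and 3839 RPKM in E16.5 captures and 33.2 and 56.05 RPKM in E11.5 captures. Their part in these changes was not tested, and in capture means more cells of a type and more RNA per cell cannot be told apart.

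Between E12.5 and E16.5, 1 downstream gene rose, Inha (inhibin alpha) at 3.56 ± 0.32 (adjusted p = 0.00124 in limma), and 1 fell, Podxl at -4.21 ± 0.66 (adjusted p = 0.0217). From E10.5 to E11.5, Inha alone was called, at 3.29 ± 0.39 (adjusted p = 0.00438). Star, the cholesterol carrier of steroid synthesis, and Inha rose between E10.5 and E13.5, at 5.29 ± 0.85 (adjusted p = 0.0113) and 3.72 ± 0.39 (adjusted p = 0.000754). Both comparisons with E10.5 rest on its 1 capture, with its spread taken from other stages, and E11.5 and E10.5 lie in different runs. Amh and Dhh were called higher in late captures, at 3.92 ± 0.64 and 3.07 ± 0.63 (adjusted p = 0.0137 and 0.0481). Of 10 tested family relatives, Egr1, an immediate early gene with zinc fingers like those of Wt1, was the 1 called, higher in late captures at 2.05 ± 0.42 (adjusted p = 0.0481) and between E11.5 and E16.5 at 2.41 ± 0.52 (adjusted p = 0.0443).

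Family relatives also differed in how many cells held them. Gata6, the closest relative of Gata4 on the list, was found in 66.9% of the 396 cells, near the 67.7% of Gata4. Lhx2, a relative of Lhx9, was found in 0.253% of cells. Among chromobox genes, Cbx8 was found in 9.34%, Cbx6 in 8.84% and Cbx7 in 1.26% of cells. The heterochromatin chromobox genes Cbx1, Cbx3 and Cbx5, which are not Polycomb subunits, were found in 99.2%, 98.99% and 98.2%. Emx1, Six3, Six6 and Lhx8 were not analysed here.

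Most cells held several of the factors. Of 396 cells, 6 held none, 51 held 1, 128 held 2, 97 held 3, 79 held 4, 28 held 5 and 7 held all 6. The mean was 2.77 factors per cell. It was highest in the second E12.5 capture at 3.57, and lowest in the E16.5 captures at 2.06 and 2.03. No cell of E16.5 held more than 4, whereas 5 of the 7 cells with all 6 came from E10.5. Gata4, Wt1 and Lhx9 were found together in 132 cells (33.3%), and 11 cells had none of these. In the second E12.5 capture 27 of 37 cells held Gata4, Wt1 and Lhx9 together.

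Whether pairs of factors met in the same cells more than their separate shares imply was tested over captures. The expected share was the product of both shares in that capture, and captures with fewer than 3 cells for either gene were left out. Lhx9 and Emx2 were found together in 25.4% of E10.5 cells, where 17.2% was expected. At E11.5 the 2 captures had 34.6% and 51.2% with both, where 28.7% and 41.6% were expected. At E12.5 it was 26.7% and 54.1% where 26% and 51.4% were expected, and at E13.5 21.4% and 28.6% where 20.6% and 22.2% were expected. The observed share was above the expected one in 7 of 7 captures, by 4.89 points on average, with an exact two-sided sign-flip permutation p of 0.0156, the smallest possible with 7 captures.

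Wt1 and Emx2 were found together 3.20 points above expectation, also in 7 of 7 captures (exact permutation p = 0.0156). In the E10.5 capture all 25 cells with Emx2 held Wt1, and at E11.5 the counts were 22 of 25 and 28 of 28. At E12.5 they were 18 of 18 and 22 of 22, and at E13.5 13 of 17 and 20 of 24. Averaged over those captures, Wt1 was found in 92.5% of cells with Emx2 and 79.1% of cells without it. Emx2 and Cbx2 were 3.06 points above expectation (6 of 7 captures, exact permutation p = 0.0313), and Gata4 and Cbx2 1.997 points above (7 of 9 captures, exact permutation p = 0.0313). None of the 15 pairs passed after adjustment over them, with a lowest adjusted p of 0.117, shared by these 4 pairs. Pairs with Six4 were compared in 4 captures, where the smallest possible exact permutation p is 0.125, so they could not pass. No other pair could pass on its own either, even at the smallest p its captures allow.

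Gata4 and Wt1, the 2 factors most often detected, showed a difference of -0.22 points (5 of 9 captures above, exact permutation p = 0.820). They were found together in 42.4% of E10.5 cells where 43.3% was expected, and the 9 captures lay on both sides of 0. Gata4 and Lhx9 were together in 33.9% of E10.5 cells where 19.99% was expected. That was the largest excess of any pair in any capture, and the mean over 9 captures was 2.55 points (exact permutation p = 0.215). Cells with more genes detected can hold more of any pair: cells with Gata4 had a higher median number of genes than cells without it in 8 of 9 captures, and cells with Cbx2 in 9 of 9. With the expected share taken separately among each capture's cells with more and with fewer genes detected, all 15 pairs kept the sign of their difference, and several differences were smaller. That of Gata4 and Cbx2 was then 1.42 points (exact permutation p = 0.0781). Those of Six4 were 0.133 points with Wt1, 0.157 with Lhx9, 0.773 with Emx2 and 0.871 with Cbx2, against 0.588, 0.430, 1.52 and 1.55 points without this split.

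**Figure D4:**
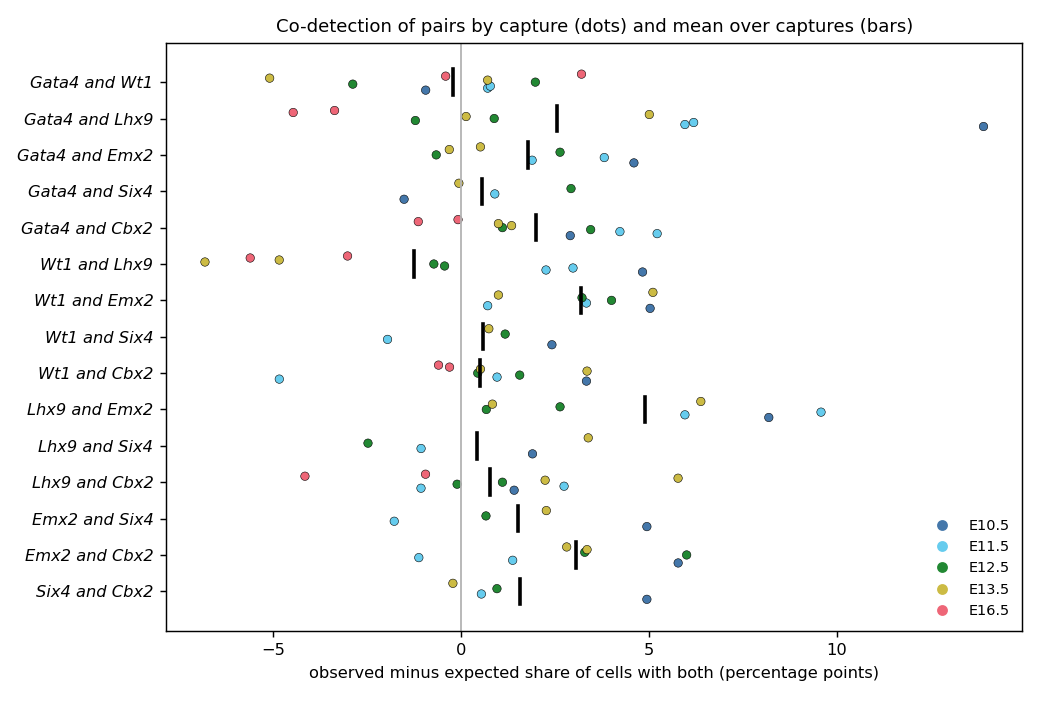
Observed minus expected share of cells with both factors of a pair, in percentage points; dots are captures coloured by stage and bars the mean over captures. Lhx9 with Emx2 and Wt1 with Emx2 lie right of 0 in all 7 captures in which they were compared.

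Cells were next divided by markers of the cell types of the gonad, in order to see where each factor was found. A cell was called marked for a type if it held at least 3 of that type's markers at 1 RPKM or more, and it was compared with the other cells of its own capture. The classes overlap: 43 Sertoli-marked cells and 33 of 39 surface-marked cells were also interstitial-marked, and interstitial markers were found in 260 of 396 cells, so marked cells are not pure types. Sertoli- and interstitial-marked cells were compared in the captures of E12.5 to E16.5 and surface-marked cells in those of every stage, wherever a capture held at least 5 marked and 5 other cells. With 6 captures the smallest exact permutation p is 0.0313. After adjustment over the 18 tests the lowest adjusted p was 0.0804, so none passed the threshold of 0.05. A test at the smallest p could pass only if most of the 18 tests were also at it.

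Gata4 and Wt1 were found in more Sertoli-marked cells than other cells. Their mean level did not follow the share throughout, and was higher in marked cells in 5 of 6 captures for Gata4 and 4 of 6 for Wt1. In the E12.5 captures the Wt1 level was 87.6 and 63.9 RPKM in marked cells, against 109.5 and 74.1 RPKM in other cells. Gata4 was detected in 83.3% and 90% of Sertoli-marked cells in the E12.5 captures, 100% and 92.9% in those of E13.5, and 89.5% and 83.3% in those of E16.5. In the other cells of those captures Gata4 was detected in 50% and 82.4%, 81.8% and 61.9%, and 75% and 50%. The marked cells were higher in 6 of 6 captures, 89.8% ± 6.28 against 66.8% ± 14.99 (SD, n = 6; exact sign-flip permutation p = 0.0313, adjusted p = 0.0804). Wt1 was detected in 100% and 95% of Sertoli-marked cells in the E12.5 captures, 100% and 92.9% in those of E13.5, and 94.7% and 88.9% in those of E16.5. In the other cells Wt1 was detected in 91.7% and 94.1%, 54.5% and 64.3%, and 50% and 56.2%. At E13.5 and E16.5 the gap for Wt1 was wide, and at E12.5 it was at most 8.33 points. The means were 95.2% ± 4.28 of marked and 68.5% ± 19.5 of other cells (6 of 6 captures; exact permutation p = 0.0313, adjusted p = 0.0804).

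Lhx9 went the other way in 5 of 6 captures. It was detected in 16.7% and 90% of Sertoli-marked cells in the E12.5 captures, 39.1% and 21.4% in those of E13.5, and 15.8% and 27.8% in those of E16.5. In the other cells it was detected in 50% and 82.4%, 87.9% and 61.9%, and 58.3% and 62.5%. The exception was the second E12.5 capture, in which 18 of 20 Sertoli-marked cells held Lhx9. That capture also held the 8 cells with germ cell markers, and 4 of those 8 were among the Sertoli-marked cells. The part of these 4 cells in the Lhx9 share was not tested. The means were 35.1% ± 28.2 of marked and 67.2% ± 14.7 of other cells (exact permutation p = 0.0625, adjusted p = 0.0938). The mean level of Lhx9 was lower in marked cells in 6 of 6 captures, 10.9 RPKM against 33.8 RPKM.

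Interstitial-marked cells showed the reverse. Lhx9 was detected in 60% and 86.7% of them in the E12.5 captures, 84.4% and 60% in those of E13.5, and 64.3% and 63.2% in those of E16.5. In the other cells Lhx9 was detected in 10% and 85.7%, 0% and 31.2%, and 5.88% and 20%. The means were 69.8% ± 12.4 of marked and 25.5% ± 31.5 of other cells, higher in 6 of 6 captures (exact permutation p = 0.0313, adjusted p = 0.0804). Wt1 was detected in fewer interstitial-marked than other cells in 6 of 6 captures, 73.3% ± 14.7 against 93.8% ± 7.80 (exact permutation p = 0.0313, adjusted p = 0.0804). Gata4 was detected in 67.4% ± 18.02 of interstitial-marked and 88.5% ± 5.45 of other cells, and was lower in the marked cells in 5 of 6 captures (exact permutation p = 0.0625, adjusted p = 0.0938). The mean level of Wt1 was 66.5 RPKM in interstitial-marked and 81.8 RPKM in other cells, and was lower in the marked cells in 3 of 6 captures, so its level did not follow its share throughout. That of Gata4 was 55.7 RPKM in marked and 93.6 RPKM in other cells, lower in 6 of 6. Sertoli- and interstitial-marked cells are largely each other's comparison cells, so these 2 sets of values are not independent.

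The 3 captures of E10.5 and E11.5 also held enough interstitial-marked cells (39, 35 and 18), and were added after the data were seen. In the E10.5 capture, Lhx9 was detected in 48.7% of marked and 25% of other cells. In the E11.5 captures its share was 60% and 61.1% among marked cells, against 58.8% and 60.9% among the others. Over all 9 captures Lhx9 was higher in marked cells in 9 of 9, by 32.3 points (exact permutation p = 0.00391, the smallest possible, adjusted p = 0.0703). Six4 was higher in 8 of 9, at 10.97% of marked and 4.78% of other cells (exact permutation p = 0.00781, adjusted p = 0.0703). Wt1 was detected in 79.2% of marked and 91.7% of other cells (exact permutation p = 0.0586, adjusted p = 0.102), and at E11.5 it was in 91.4% and 94.4% of marked cells, against 76.5% and 95.7% of other cells. Gata4 was higher in marked cells in 3 of 9 captures (adjusted exact permutation p = 0.135).

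Without cells marked for more than one type, a comparison added after the data were seen, Lhx9 was detected in 12.1% ± 8.38 of Sertoli-marked cells against 66.1% ± 13.4 of other cells, and was lower in 5 of 5 captures. The second E12.5 capture, the exception above, no longer held enough cells and was not among these 5. In that capture 6 of the 7 cells that were not interstitial-marked held Lhx9. Gata4 was then detected in 98.5% of Sertoli-marked and 63.2% of other cells, and Wt1 in 98.6% and 60.6%. Lhx9 was detected in 74.96% ± 9.33 of interstitial-marked and 24.3% ± 30.8 of other cells, and was higher in 5 of 6 captures (exact permutation p = 0.0625). With 5 captures the smallest exact permutation p is 0.0625. Sertoli-marked cells had more genes detected than other cells in 6 of 6 captures, by 24.5 to 1243 in the median, and interstitial-marked cells in 2 of 6. The part of genes detected in these shares was not tested.

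Emx2 and Six4 were found in more surface-marked cells. Emx2 was detected in 100% of surface-marked cells in the E10.5 capture and the second E11.5 capture, 85.7% in both E12.5 captures, and 80% and 85.7% at E13.5. In the other cells it was detected in 37.0%, 62.9%, 52.2% and 53.3%, and 25.5% and 36.7% of the same captures. The means were 89.5% ± 8.41 of marked and 44.6% ± 13.8 of other cells, higher in 6 of 6 captures (exact permutation p = 0.0313, adjusted p = 0.0804). These captures held 5 to 7 surface-marked cells each, 37 in all, of which 33 had Emx2. No surface-marked cell was found at E16.5, the stage at which Emx2 was nearly undetected.

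Six4 was detected in 40% and 33.3% of surface-marked cells in those E10.5 and E11.5 captures, 14.3% and 42.9% at E12.5, and 20% and 14.3% at E13.5. In the other cells Six4 was detected in 18.5%, 5.71%, 0% and 16.7%, and 15.7% and 0%. The means were 27.5% ± 12.9 of marked and 9.43% ± 8.55 of other cells (6 of 6 captures; exact permutation p = 0.0313, adjusted p = 0.0804), from 10 marked cells with Six4. Wt1 was detected in all 37 surface-marked cells and in 83.98% ± 11.9 of other cells (exact permutation p = 0.0313, adjusted p = 0.0804). Cbx2 was detected in 33.2% ± 10.6 of surface-marked and 20.4% ± 12.8 of other cells (5 of 6 captures; exact permutation p = 0.0625, adjusted p = 0.0938). Surface-marked cells had more genes detected in 5 of 6 captures, by up to 952 in the median.

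**Figure D5:**
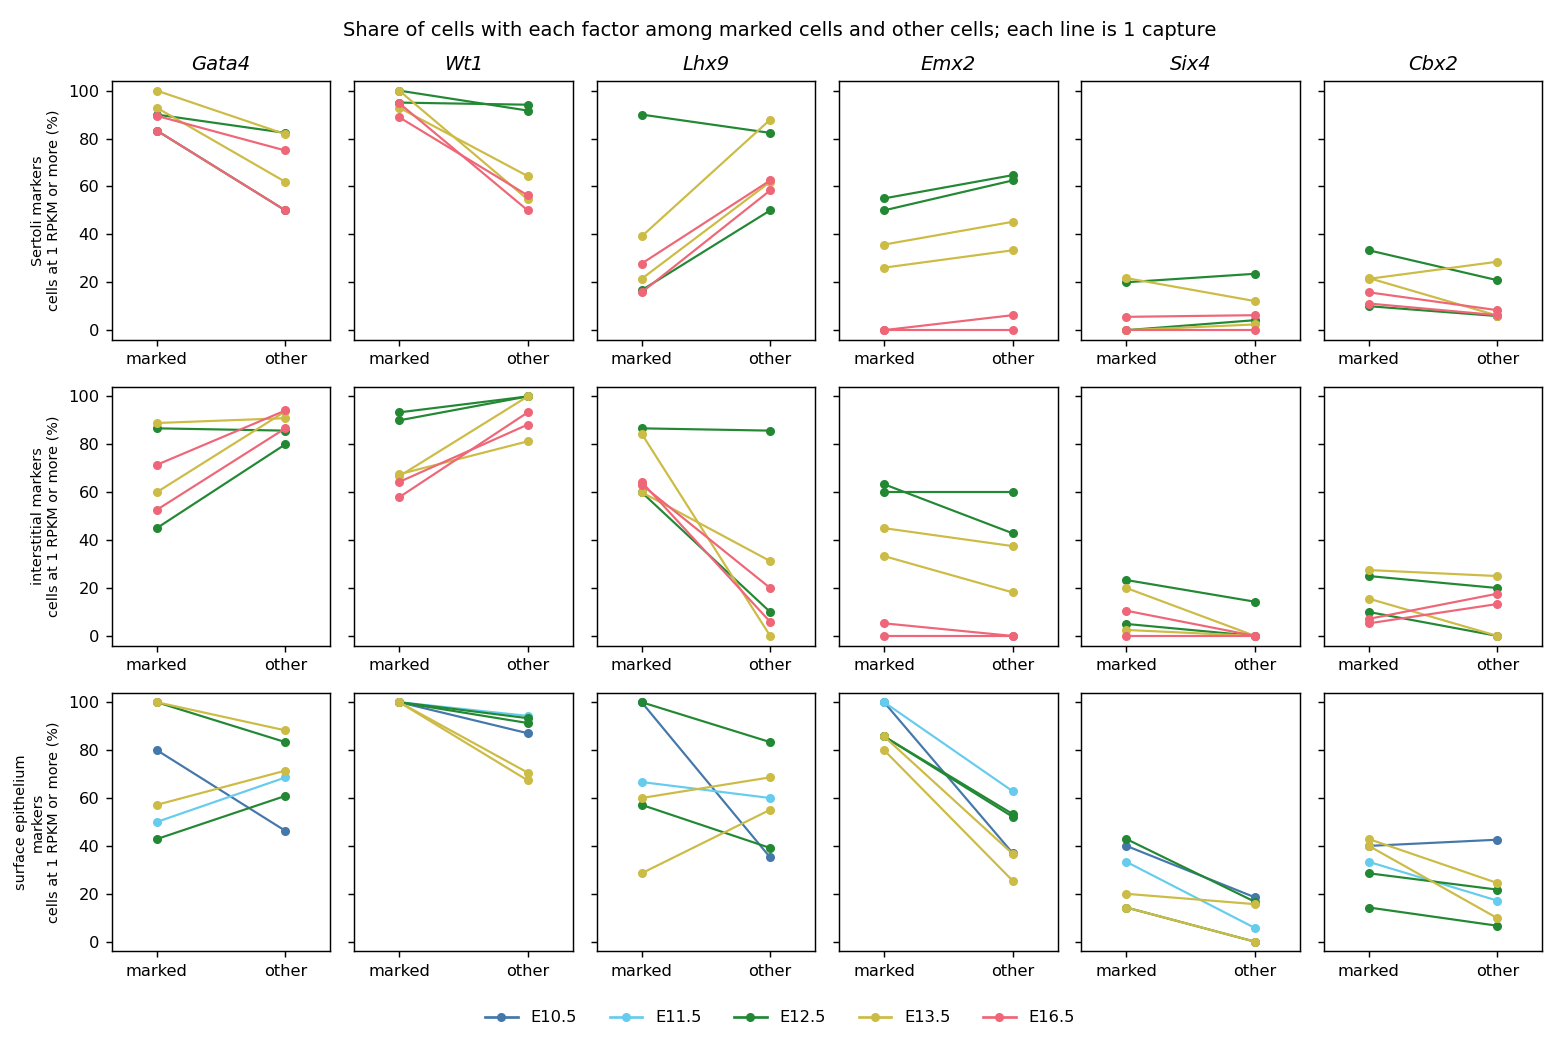
Share of cells (%) with each factor among marked cells (left points) and the other cells of the same capture (right points), for cells with at least 3 Sertoli, interstitial or surface epithelium markers; each line is a capture, coloured by stage. Lhx9 lines climb to the right for Sertoli markers in 5 of 6 captures and drop to the right for interstitial markers in 6 of 6, and Emx2 lines drop for surface markers in 6 of 6.

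Smaller classes are given as counts. Leydig-marked cells reached 5 in 1 capture only, and no test was made. Of all 19, 16 held Gata4, 12 Wt1, 8 Lhx9, 5 Emx2, 2 Six4 and 2 Cbx2. All 8 cells with germ cell markers held Gata4 and Wt1, and 6 held Lhx9. The same 8 cells were all interstitial-marked. Of 3 endothelial-marked cells none held Gata4, Lhx9, Emx2, Six4 or Cbx2, and 2 held Wt1. Of 10 smooth-muscle-marked cells 8 held Gata4, 7 Wt1 and 7 Lhx9.

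For each factor the genes whose level varied most like it from cell to cell were found over 396 cells, after the mean of each capture was subtracted, among 9521 genes detected in at least 10% of cells. These are Pearson correlations of log2(RPKM + 1) and are descriptions, since cells of a capture share a library preparation and differ in depth. Gata4 varied most like the reporter eGFP (r = 0.44), Nr5a1 itself (0.43) and the nuclear receptor gene Nr6a1 (0.41). No other factor came near eGFP or Nr5a1: Lhx9 had r = 0.16 and 0.03, Wt1 0.12 and 0.04, Emx2 0.11 and 0.03, Six4 -0.04 and -0.04, and Cbx2 -0.03 and -0.05. As the cells were sorted on the reporter, cells with little of it are missing from these values.

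Lhx9 varied most like Tcf21 (r = 0.41), a helix-loop-helix factor of the gonadal mesenchyme, followed by Man1a (0.36) and Hoxd8 (0.36). Emx2 varied most like Podxl (0.36), the gene that fell between E11.5 and E16.5, followed by Myrf (0.32) and Lhx9 (0.30), another of the 6. Wt1 varied most like the tight junction gene Cgn (0.33), Gpr56 (0.32) and Bex4 (0.32). Cbx2 varied most like the cell cycle checkpoint kinase gene Chek1 (0.25), Ppm1g (0.25) and the ribonucleotide reductase gene Rrm1 (0.24). For Six4 the closest genes were Nubpl (0.24), Rrp9 (0.23) and Glt8d1 (0.21), weak correlations in a gene found in few cells. The number of genes detected correlated with Gata4 at 0.24, Wt1 at 0.21, Cbx2 at 0.18, Six4 at 0.13, Emx2 at 0.08 and Lhx9 at 0.04.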

How the data were processed

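Single Nr5a1-eGFP cells were sequenced on Fluidigm C1 chips, and the authors deposited 1 table of RPKM values per cell, for 16459 genes and 400 of 435 labelled cells. Builds named in the submitters' processing notes are GRCm38.p3 and mm10. No source used here gives the aligner, the counting tool or how cells were kept. RPKM was inferred from the numbers themselves. With GENCODE M21 exonic lengths, all low values (up to 20 reads) of the 6 factors were whole reads within 0.05, which gave the reads and depths cited (0.856 to 13.0 M reads per cell).

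Cells with fewer than 3000 genes were left out (3 cells), and 1 near-identical pair was averaged. Capture means as log2(mean RPKM + 1) were fitted with limma 3.58.1 (trend, robust; R 4.3.3) for genes averaging 1 RPKM or more in at least 2 captures, with Benjamini-Hochberg adjustment at 0.05. The late minus early fit had 7 residual degrees of freedom and the stage fits 4. Shares were compared by exact permutation over captures, with adjustment over 6 genes, 15 pairs or 18 class tests. Wilson 95% intervals and limits for a count of 0 (3 cells) cover counting error only.

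The limma fits were checked on simulated captures for late minus early and for E16.5 minus E12.5. The code of the exact tests was checked against another implementation on random numbers. The members, gene lists and markers were chosen with earlier results of these data known. Other genes were named only from lists of partners, downstream genes, Polycomb genes and relatives (up to 4 called per comparison), as markers, or as the 3 genes most like a factor. Some listed genes are not reported here. Alternatives were another pseudocount, filter, scaling, detection limit or number of markers, each capture left out, and each run alone.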

Additional observations from a re-analysis of the deposited data

How the results depend on the processing

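Of 534 recomputed log2 changes, 504 kept their direction and their side of the threshold, as did 157 of 165 co-detection, 232 of 246 marked-cell and 82 of 90 share values. The cause of the others was not tested, unless the setting itself leaves fewer captures. Averaged log2 values over cells gave Emx2 changes past the threshold, -2.08 between E16.5 and E11.5 and -1.88 between E16.5 and E12.5. The Wt1 change of -1.71 between E16.5 and E11.5 lost its call without the filter on low values and when either capture of E11.5 or E16.5 was left out, at log2 changes that lay between -1.74 and -1.68 with captures left out. The other changes of sign were in differences that passed no threshold.

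The share of tested genes that were called moved most. Without the filter on low values it was 0.0243% late minus early (4 genes), 1.25% for E11.5 minus E10.5 (205), 0.0304% for E12.5 minus E11.5 and for E16.5 minus E12.5 (5 each), 0.164% for E16.5 minus E11.5 (27) and 1.56% for E13.5 minus E10.5 (257). Late minus early, it was 0% within the shallower run and 3.98% (421 genes) within the deeper one. With a pseudocount of 0.1 it was 0.796% for E11.5 minus E10.5. With averaged log2 values it was 0.321% for E11.5 minus E10.5, 2.49% for E16.5 minus E12.5 and 4.83% for E16.5 minus E11.5. With each capture left out, the ranges were 0.124% to 0.928% late minus early, 0.0496% to 0.395% for E11.5 minus E10.5, 0% to 0.00826% for E12.5 minus E11.5, 0.0329% to 0.395% for E16.5 minus E12.5, 0.380% to 1.62% for E16.5 minus E11.5 and 0.338% to 1.04% for E13.5 minus E10.5. A lone capture of a stage was then assumed to vary like the others.

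Averaged log2 values changed the sign for Cbx2 (-0.17) and Gata4 (0.55) at E12.5 minus E11.5, and for Lhx9 (0.55) and Wt1 (-0.42) at E13.5 minus E10.5. Without germ and endothelial cells Gata4 was at 0.0912 for E12.5 minus E11.5. In the 25 M read run alone Wt1 was at 0.18 late minus early. With each capture left out, log2 changes for E12.5 minus E11.5 ran from -0.61 to 1.003 for Cbx2, -0.73 to 0.68 for Gata4 and -1.28 to 0.32 for Lhx9. For E16.5 minus E11.5 they ran from -1.03 to 0.58 for Cbx2 and -0.18 to 0.77 for Gata4, and for E16.5 minus E12.5 from -1.18 to 0.34 for Cbx2 and -0.38 to 1.03 for Gata4. For E11.5 minus E10.5 they ran from -0.0380 to 0.77 for Emx2, -0.0883 to 0.70 for Lhx9 and -0.0975 to 0.00437 for Six4, and for E13.5 minus E10.5 from -0.23 to 0.12 for Lhx9 and -0.0748 to 0.43 for Wt1.

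The late minus early share of Lhx9 was -0.888 points at any value above 0, -1.94 at 5 RPKM, -8.75 in the 10 M read run and -5.99 to 4.96 with captures left out. That of Six4 was 0.908 in the 10 M read run and -6.93 to 1.31 with captures left out. Co-detection at 5 RPKM was 0.595 points for Gata4 and Wt1 and -0.128 for Wt1 and Cbx2. With captures left out it ran from -0.231 to 1.25 for Gata4 and Six4, -0.651 to 0.387 for Gata4 and Wt1, -0.553 to 1.40 for Lhx9 and Six4, and -0.0203 to 1.44 for Wt1 and Six4.

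In Sertoli-marked cells, marked minus other shares were -2.16 points for Cbx2 at 5 RPKM, and for Six4 5.59 with at least 2 markers, 1.47 with at least 4 and -2.15 to 0.603 with captures left out. In interstitial-marked cells Cbx2 was at -1.19 without cells of more than 1 class and -0.215 to 4.997 with captures left out. In surface-marked cells Gata4 was at -22 and Lhx9 at -39.3 with at least 4 markers, which left 1 capture, and Gata4 was at -0.287 at 5 RPKM and -4.49 to 5.97 with captures left out. No paired analysis was possible because captures of different stages carry dates and no shared numbers.

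Few cells held Six4 and Cbx2, and a single cell could hold most of a capture's Six4 level. Depth limits low Emx2 values, with 6.61 to 9.72 reads per RPKM in the median cell of the shallower run. A stage has at most 2 captures, and E10.5 has 1. No set in which a capture could stand far from the others of its group by Dixon's test did so, in 12 sets tested.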
